A study of Mus musculus with 8 samples.

Results

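Primary mouse hepatocytes that had received iron held less transferrin receptor mRNA than any other library of the experiment. Their ferritin heavy chain mRNA was higher than in untreated cells, while its difference from cells given other metals was not called. The 8 genes described here cover the handling of iron: uptake (Tfrc, Trf and Slc11a2), storage (Fth1 and Ftl1), export (Slc40a1) and the iron sensors (Aco1 and Ireb2). They were listed by name and function, out of 55450 annotated genes, and all 8 were among the 15468 genes tested. Tested genes have a sum of at least 80 counts over the 8 libraries, and the lowest count of any of the 8 genes in any library was 1219.

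RNA-seq was made from hepatocytes of C57BL/6 mice at post-natal week 8. The genotypes were WT, labelled Slc39a8(F/F), and LSKO, labelled Alb-cre(+/+);Slc39a8(F/F), so that both carry the floxed Slc39a8 alleles and LSKO cells also carry Cre under the albumin promoter, which is active in hepatocytes. Slc39a8 encodes ZIP8, a transporter of divalent metals and selenite. Untreated WT and untreated LSKO cells had 2 libraries each, and LSKO cells given MnCl2, FeCl2 (ferrous chloride), sodium selenite or ZnCl2 at 2 µM had 1 library each. All cells were kept in serum-free medium with dexamethasone, and the metals were present for 24 h by the sample labels and overnight by the series design. Whether replicates were separate mice is not stated in the labels, so p-values measure the spread between these libraries, which may be technical. Each metal had 1 library, and its spread was taken from the pairs of WT and LSKO libraries.

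Iron in the blood travels bound to transferrin (Trf), which hepatocytes secrete. Cells take it up through the transferrin receptor (Tfrc), and Slc11a2 (DMT1) moves ferrous iron out of the endosome. Ferritin, a shell of heavy (Fth1) and light (Ftl1) chains, stores it, and ferroportin (Slc40a1) is the exporter. Iron regulatory proteins, encoded by Aco1 (IRP1, which is cytosolic aconitase when it holds an iron-sulfur cluster) and Ireb2 (IRP2), bind hairpins called iron-responsive elements when iron is scarce. Bound in the 3′ UTR of Tfrc they protect the mRNA from decay, and bound in a 5′ UTR, as in the ferritins and ferroportin, they block translation. RNA-seq measures the mRNA level and not translation.

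The elements themselves are shown because they are what the sensors bind. The search took the motif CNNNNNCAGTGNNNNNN, with the 5 bases on each side of the hexamer loop paired (G-T pairs allowed), on the mRNA strand of the GENCODE protein-coding transcripts for GRCm38. In each site below the 6 loop bases are in capitals.
Tfrc, 3′ UTR, chr16:32631219-32631248, plus strand: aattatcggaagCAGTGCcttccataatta
Tfrc, 3′ UTR, chr16:32631598-32631627, plus strand: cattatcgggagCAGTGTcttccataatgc
Tfrc, 3′ UTR, chr16:32631663-32631692, plus strand: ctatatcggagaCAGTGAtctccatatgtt
Tfrc, 3′ UTR, chr16:32631710-32631739, plus strand: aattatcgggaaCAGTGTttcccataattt
Fth1, 5′ UTR, chr19:9982732-9982761, plus strand: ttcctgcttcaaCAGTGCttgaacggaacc
Ftl1, 5′ UTR, chr7:45459778-45459807, minus strand: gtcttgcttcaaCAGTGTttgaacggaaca
Slc40a1, 5′ UTR, chr1:45925464-45925493, minus strand: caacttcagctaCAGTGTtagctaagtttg

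Tfrc held 4 such sites and Fth1, Ftl1 and Slc40a1 held 1 each. The motif stood in a UTR of 160 of 21866 protein-coding genes (0.732%). No match to these letters was found in the transcripts of Trf, Slc11a2, Aco1 and Ireb2. The search misses elements with a bulge or mismatch in the paired bases or with another loop. A gene without a match may therefore still carry an element, and the sites shown may not be all of a gene. A match describes the sequence and was not measured as bound.

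**Figure D1:**
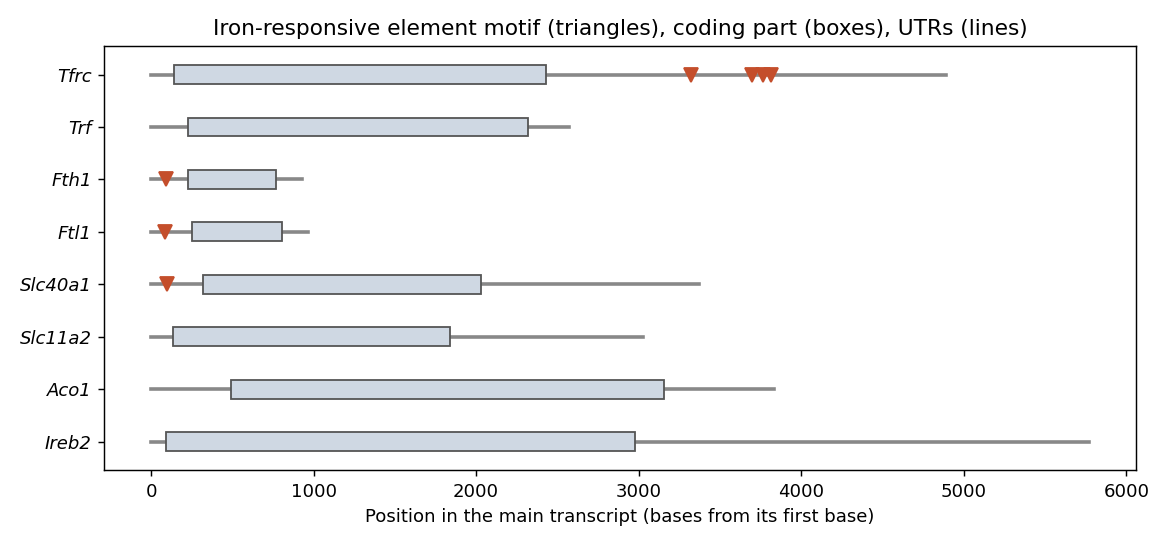
Positions of the motif (triangles) along the main transcript of each of the 8 genes, in bases from the first base, with the coding part as a box and the UTRs as lines. The 4 sites of Tfrc lie in the 3′ UTR after base 2429, the end of the coding part, and the sites of Fth1, Ftl1 and Slc40a1 lie in the 5′ UTR at bases 93, 84 and 96.

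The iron library was the shallowest, with 19943899 reads in genes, and WT replicate 1 the deepest, with 27731054. The manganese library stood apart: 72.2% of its reads fell in genes, against 39.3% to 42.1% in the others, and 4.48% in no gene, against 42.3% to 45.6%. Genes with at least 20% of their exon bases under an exon of the opposite strand had a median log2 fold change of -4.17 with manganese against untreated LSKO (1652 genes), beside 0.07 for the 9900 genes with no such overlap. Comparisons of iron with the other metals are therefore also given without this library. HTSeq had discarded 592678 to 680199 reads for poor alignment from each library of WT, iron, selenite and zinc cells, but 62 from the manganese library and 0 from either LSKO replicate, so the iron library is compared below with untreated WT cells as well. Slc39a8 had 12.7 and 15.5 normalized CPM (CPM of the TMM-scaled library) in WT, 8.15 and 1.88 in LSKO replicates 1 and 2, and 1.48 to 3.18 with the metals. LSKO replicate 1 thus kept more of the deleted gene than the other knockout libraries, and calls of the 8 genes that are lost without it are named.

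Per kilobase of transcript, the ferritin mRNAs were far above the rest. Fth1 averaged 3122 and Ftl1 3454 normalized CPM per kilobase over the 8 libraries. Aco1 followed at 71.7, Slc40a1 at 42.2, Tfrc at 30.7, Trf at 28.6, Slc11a2 at 22.5 and Ireb2 at 15.4. The place of Trf in this order is uncertain and its value may be too low. Of its exon bases 63.5% are shared with another gene of the same strand, and how reads there were counted is not stated. All values below are normalized CPM per gene, without division by length, and are compared within a gene only.

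**Figure D2:**
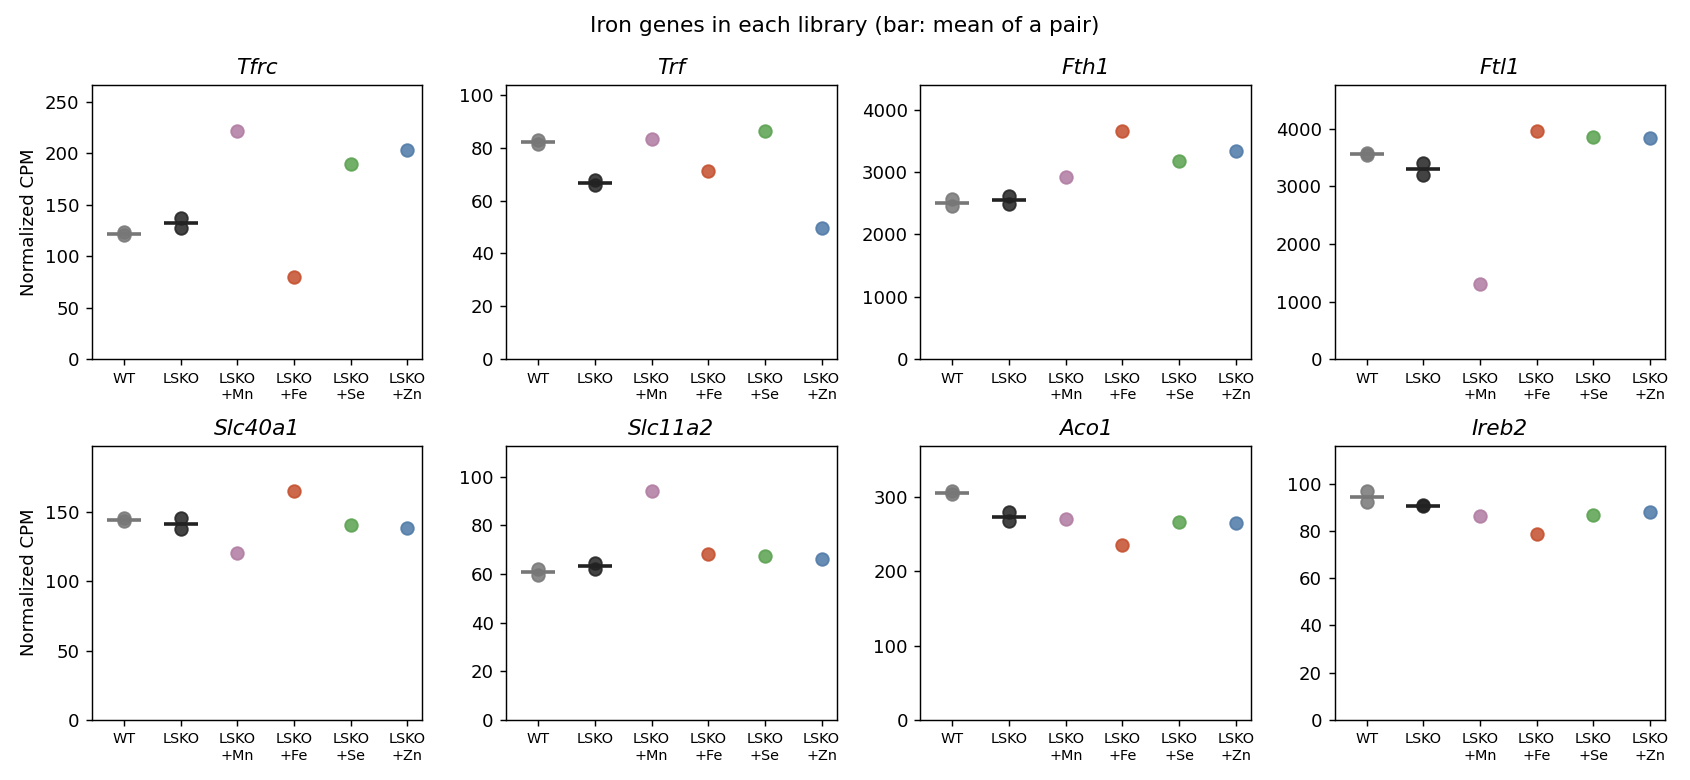
Normalized CPM of the 8 iron genes in each library (dots), by group, with a bar at the mean of a pair. Tfrc is lowest with iron (80.1) and highest with manganese (221.8), Fth1 is highest with iron (3664), and Ftl1 is low in the manganese library alone (1303).

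The main question here was how iron compares with the other treatments. Against the mean of manganese, selenite and zinc, Tfrc was lower with iron and Ftl1 higher, and the other 6 genes were not called. A gene was called where the adjusted p was below 0.05 and the log2 fold change exceeded 0.5 in either direction. That is 2 of 8 genes, where 22.7% of all genes tested were called (15.2% higher and 7.54% lower). Without the manganese library, Tfrc alone was called, where 18.1% of all genes were (8.69% higher and 9.43% lower). Against untreated LSKO cells Tfrc was lower and Fth1 higher, 2 of 8 genes, beside 8.70% of all genes (3.80% higher and 4.89% lower). Against untreated WT cells Tfrc was again lower and Fth1 higher, beside 10.6% of all genes (5.88% higher and 4.76% lower). The median log2 fold change of the 8 genes was -0.06 against the other metals (0.07 over all genes) and 0.10 against untreated LSKO (-0.003 over all genes). The iron library was the lowest of the 8 for Tfrc, Aco1 and Ireb2 and the highest for Fth1, Ftl1 and Slc40a1, while over all genes it was lowest for 15.0% and highest for 19.4%.

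**Figure D3:**
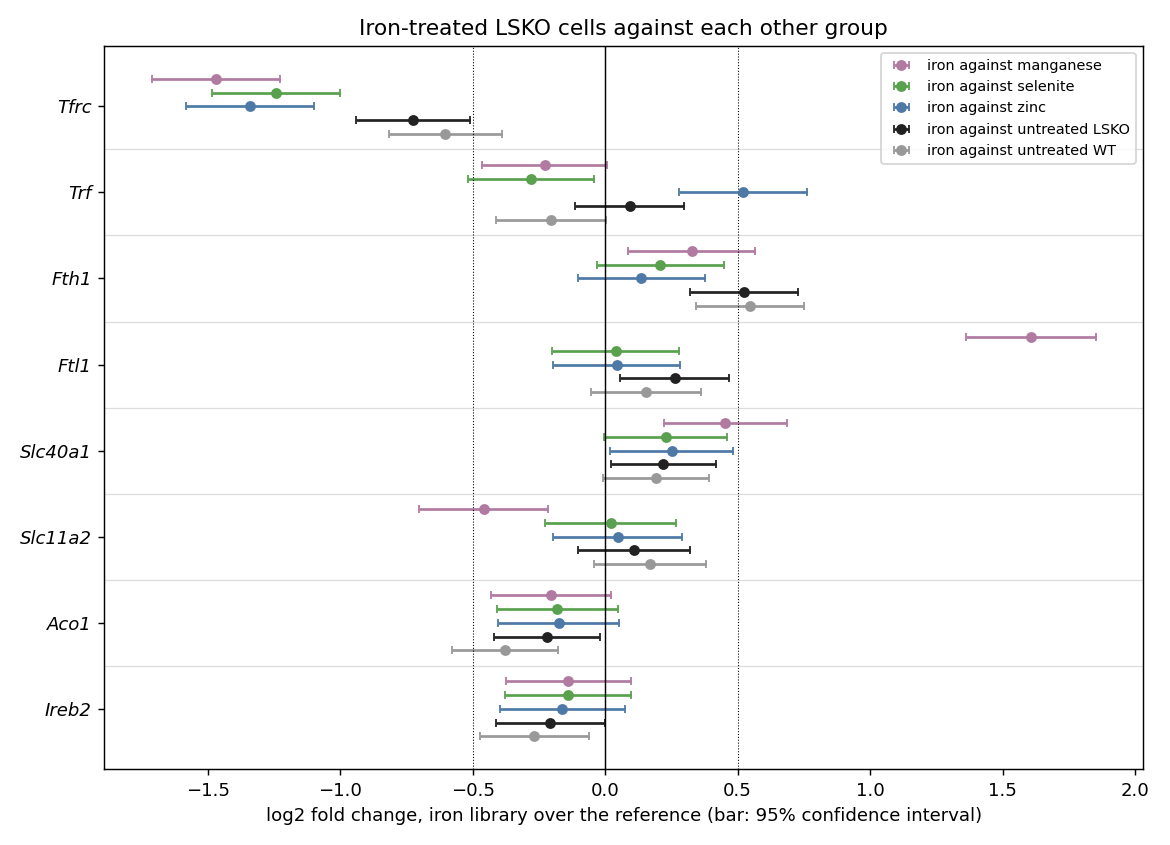
Log2 fold change of the iron library over each other group for the 8 genes (dots) with 95% confidence intervals (bars), where dotted lines mark the minimum of 0.5 for a call. All 5 intervals of Tfrc lie below 0, from -1.47 against manganese to -0.60 against WT, and Ftl1 departs from the rest only against manganese (1.61).

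Tfrc, the receptor that takes up transferrin-bound iron (ENSMUSG00000022797, GRCm38 chr16:32608920-32632794, plus strand), had 123 and 120 normalized CPM in WT and 127 and 137 in untreated LSKO cells. It had 80.1 with iron, 222 with manganese, 190 with selenite and 203 with zinc. The iron library lay below all others and the other metals above all 4 untreated libraries, with no overlap. The share of all genes with such an order was not counted. Against the mean of the other metals the log2 fold change was -1.35 (standard error 0.0955, 95% interval -1.56 to -1.14, adjusted p = 2.71e-06 by the quasi-likelihood F-test of edgeR), a level 2.55-fold lower. It was -1.24 against selenite (adjusted p = 0.000164), -1.34 against zinc (adjusted p = 0.000322) and -1.47 against manganese (adjusted p = 1.54e-06), all by the same edgeR test. Without the manganese library it was -1.29 (interval -1.51 to -1.07, edgeR adjusted p = 9.00e-05).

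Part of that gap came from the reference side, since Tfrc was higher with each other metal than in untreated LSKO cells. Against those untreated cells iron gave -0.72 (standard error 0.0969, edgeR adjusted p = 0.00115), a level 1.65-fold lower, and against WT -0.60 (edgeR adjusted p = 0.00279). Leaving out LSKO replicate 1 gave -0.80, and leaving out LSKO replicate 2 gave -0.68. Manganese gave 0.74 (edgeR adjusted p = 8.30e-05), zinc 0.61 (edgeR adjusted p = 0.00218) and selenite 0.52 (edgeR adjusted p = 0.00284) against untreated LSKO. The selenite call stood close to the minimum of 0.5 and was lost in 9 of 15 alternatives, among them DESeq2 and median-ratio scaling (0.497 in both), no filter on low counts (0.496), offsets for length and GC content of the transcripts (0.46), and leaving out LSKO replicate 1 (0.42) or either WT replicate (0.48 in both). In the order of levels, iron, WT, LSKO, selenite, zinc and manganese, the neighbours that did not pass a test of their difference were WT and LSKO (0.12, edgeR adjusted p = 0.326), selenite and zinc (0.10, edgeR adjusted p = 0.618), and zinc and manganese (0.13, edgeR adjusted p = 0.455). No exon base of Tfrc lies under an annotated exon of the opposite strand.

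Slc11a2, the endosomal ferrous iron transporter (ENSMUSG00000023030, chr15:100387898-100425072, minus strand), had 59.6 and 62.0 in WT, 62.2 and 64.6 in untreated LSKO, 68.4 with iron, 67.4 with selenite and 66.2 with zinc. Manganese alone stood out, at 94.0. Against untreated LSKO the log2 fold change was 0.57 with manganese (standard error 0.0929, edgeR adjusted p = 0.000891) and 0.11 with iron (interval -0.10 to 0.32, edgeR adjusted p = 0.486). Iron against selenite and zinc, without the manganese library, gave 0.03 (interval -0.18 to 0.25). An exon of Gm5475 covers 6.33% of the exon bases of Slc11a2 on the other strand, and Gm5475 had 7 counts with manganese and 62 to 98 in the other libraries. The part of the different counting of the manganese library in the Slc11a2 value was not tested.

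Trf, the iron carrier of plasma (ENSMUSG00000032554, chr9:103204001-103230444, minus strand), had 82.9 and 81.4 in WT and 67.6 and 66.0 in untreated LSKO cells. It had 71.2 with iron, 83.4 with manganese, 86.5 with selenite and 49.7 with zinc. The zinc library was the lowest, the selenite library the highest, and the WT and LSKO pairs did not overlap. Such a gap between the pairs was present for 60.8% of all genes tested. Iron left Trf between these, at 0.09 against untreated LSKO (interval -0.11 to 0.30, edgeR adjusted p = 0.552) and 0.003 against the other metals (interval -0.19 to 0.20), or 0.12 without manganese. Against zinc alone it was called higher with iron, at 0.52 (interval 0.28 to 0.76, edgeR adjusted p = 0.0169). Zinc gave -0.43 against untreated LSKO (edgeR adjusted p = 0.0275), under the minimum of 0.5 in size, and -0.72 against WT (edgeR adjusted p = 0.00104), which was called. Of the exon bases of Trf, 63.5% are shared with the readthrough gene Gm20425, which had 0 counts in all 8 libraries. How reads in the shared part were assigned is not stated in the sources used here.

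Fth1, the ferroxidase chain of ferritin (ENSMUSG00000024661, chr19:9980598-9985098, plus strand), had 2564 and 2448 normalized CPM in WT and 2491 and 2608 in untreated LSKO cells. It had 3664 with iron, 3335 with zinc, 3170 with selenite and 2923 with manganese. All 4 metal libraries lay above all 4 untreated libraries, and iron was the highest. How many of all genes show such a gap was not counted. Against untreated LSKO the log2 fold change with iron was 0.52 (standard error 0.0921, interval 0.32 to 0.73, edgeR adjusted p = 0.00519), a level 1.44-fold higher. Against WT it was 0.55 (edgeR adjusted p = 0.00361). Without LSKO replicate 1 it was 0.47, under the minimum of 0.5, so the call against untreated LSKO depends on that library. With the length and GC correction it was 0.61 (edgeR adjusted p = 0.00106).

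For Fth1 the other metals pointed the same way as iron. Zinc gave 0.39 (edgeR adjusted p = 0.0378) and selenite 0.31 (edgeR adjusted p = 0.0305) against untreated LSKO, both under the fold minimum, and manganese gave 0.20 (edgeR adjusted p = 0.184). Iron against the mean of the other metals was 0.22 (interval 0.03 to 0.42, edgeR adjusted p = 0.0732), and against selenite and zinc without the manganese library 0.17 (interval -0.03 to 0.38, edgeR adjusted p = 0.199). With the length and GC correction over all 8 libraries it was 0.44 (edgeR adjusted p = 0.00129), also under the fold minimum. Its single near-identical copy, the pseudogene Gm6977, had at most 0.0212% of the Fth1 count in any library.

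Ftl1, the light chain of ferritin (ENSMUSG00000050708, chr7:45457944-45459884, minus strand), had 3586 and 3555 in WT and 3413 and 3206 in untreated LSKO cells. It had 3971 with iron, 3864 with selenite, 3851 with zinc and 1303 with manganese. The manganese library was the only one far from the others. With iron Ftl1 was above the mean of the other metals by 0.56 (edgeR adjusted p = 0.000672), and this call rested on manganese. Against selenite it was 0.04 (interval -0.20 to 0.28), against zinc 0.04 (interval -0.20 to 0.28), and against manganese 1.61 (interval 1.36 to 1.85). Without the manganese library it was 0.04 (interval -0.17 to 0.25, edgeR adjusted p = 0.777). Against untreated LSKO iron gave 0.26 (interval 0.06 to 0.47, edgeR adjusted p = 0.0908), which was not called.

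Ftl1 is partly covered by a gene of the other strand, Gm10252 (chr7:45459469-45460300, plus strand), which lies over 26.5% of its exon bases, the 5′ end with the element shown above included. Gm10252 had 2051 to 2600 normalized CPM in 7 libraries and 1.10 with manganese, on 26 counts. The low Ftl1 value and the near absence of Gm10252 counts stood in the same library, and the part of the counting in the Ftl1 value was not tested. Ftl1 also has 7 near-identical copies elsewhere in the genome, which together held 0.389% to 1.27% of its count. The most counted, Ftl1-ps1 (chr13:74399694-74407346), matches Ftl1 at 99.6% over 910 bases. It had 35.5 and 28.8 in WT, 8.63 and 7.36 in untreated LSKO, 4.19 with manganese, and 44.4, 32.7 and 35.6 with iron, selenite and zinc. The 3 libraries with low Ftl1-ps1 are those with 0 or 62 reads dropped for low alignment quality. Gm15590 had 17 to 82 counts, Ftl2-ps 23 to 80 and Ftl1-ps2 3 to 26, and reads of such copies cannot be assigned with certainty. Adding the copies to Ftl1 changed no call.

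**Figure D4:**
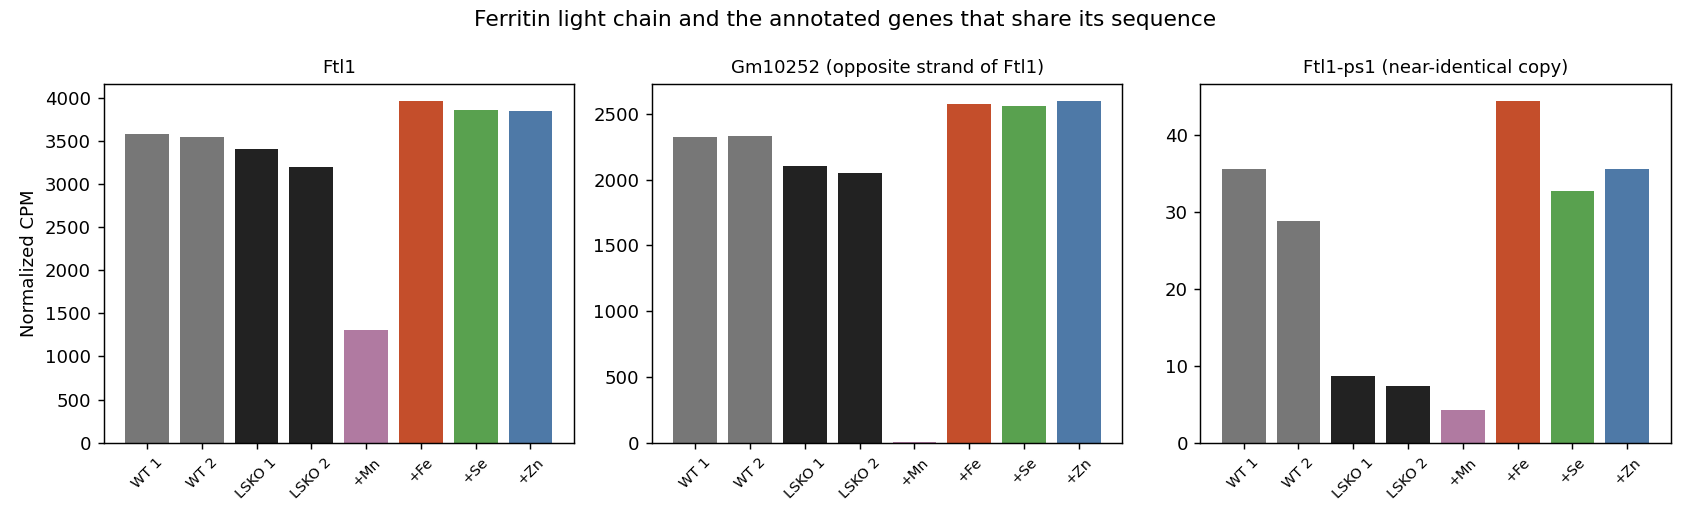
Normalized CPM of Ftl1, of Gm10252 on its opposite strand and of the near-identical copy Ftl1-ps1 in each library (bars, 1 library each). Gm10252 falls to 1.10 in the manganese library, where Ftl1 is 1303, and Ftl1-ps1 is below 9 in both untreated LSKO libraries and the manganese library.

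Slc40a1, the iron exporter ferroportin (ENSMUSG00000025993, chr1:45908068-45926523, minus strand), had 146 and 143 in WT, 146 and 138 in untreated LSKO, 165 with iron, 141 with selenite, 139 with zinc and 120 with manganese. Iron was the highest library, by a small step. Against the other metals the log2 fold change was 0.31 (interval 0.13 to 0.50, edgeR adjusted p = 0.0170), which passed on p and not on the fold minimum. Without the manganese library it was 0.24 (interval 0.04 to 0.44, edgeR adjusted p = 0.0726), and against untreated LSKO 0.22 (interval 0.02 to 0.42, edgeR adjusted p = 0.138).

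The genes of the sensors lay lowest with iron, also by small steps that were not called. Aco1 (ENSMUSG00000028405, chr4:40143081-40198338, plus strand) had 304 and 308 in WT, 280 and 267 in untreated LSKO, 235 with iron, 271 with manganese, 267 with selenite and 266 with zinc. The iron library gave -0.22 against untreated LSKO (interval -0.42 to -0.02, edgeR adjusted p = 0.138) and -0.19 against the other metals (edgeR adjusted p = 0.119), or -0.18 without manganese. Against WT it gave -0.38 (edgeR adjusted p = 0.0200), which passed on p and not on the fold minimum. Ireb2 (ENSMUSG00000032293, chr9:54863789-54912530, plus strand) had 92.5 and 96.8 in WT, 91.0 and 90.5 in untreated LSKO, 78.6 with iron, and 86.5 to 87.9 with the other metals. Iron gave -0.21 against untreated LSKO (interval -0.41 to -0.002, edgeR adjusted p = 0.174) and -0.15 against the other metals, with or without manganese (edgeR adjusted p = 0.229 and 0.258). These intervals leave room for a fall of up to 0.42 (Aco1) or 0.41 (Ireb2) against untreated LSKO.

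The knockout alone called none of the 8 genes, where 10.4% of all genes were called (6.74% higher and 3.70% lower). Before adjustment 1 gene (Trf) had a p below 0.05, and DESeq2 also called 0. Of 10 hepatocyte markers 8 were higher in the same comparison, and their part in these values was not tested. Trf gave -0.30 (standard error 0.0754, interval -0.46 to -0.13, edgeR adjusted p = 0.0237), under the fold minimum. The other 7 log2 fold changes ran from -0.16 (Aco1) to 0.12 (Tfrc). Manganese called 3 of 8 genes against untreated LSKO, beside 17.2% of all genes: Tfrc and Slc11a2 were higher (2.09% of all genes) and Ftl1 lower (15.1%). Selenite called 1 of 8, Tfrc, beside 17.6% (7.89% higher and 9.67% lower), and zinc the same gene, beside 4.45% (2.90% higher and 1.55% lower).

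Further iron and heme genes were described by 6 lists, of which calls were counted and no list was tested. Beside each count stands the share of all genes tested that was called in that direction, and a share near it says nothing about the list. A trend of the selenite library with transcript length and GC content was known from earlier results. Correcting for it left fewer selenite calls over all genes. The values of these lists and of the markers below are uncorrected, and the part of length and GC content in them was not tested. Other genes of iron uptake and reduction had 14 of 18 tested, with 3 lower and 0 higher for iron in the comparison with the other metals, with or without manganese, and 3 lower and 0 higher against untreated LSKO. Over all genes 7.54%, 9.43% without manganese, and 4.89% were lower in these comparisons. The median against the other metals was -0.11 (0.07 over all genes). Steap4, a metalloreductase of liver and adipose tissue, had 16.1 and 12.6 in WT, 26.3 and 38.7 in untreated LSKO, 11.0 with iron, 28.2 with manganese, 68.8 with selenite and 49.1 with zinc. Iron gave -2.05 against the other metals (edgeR adjusted p = 8.79e-05), -2.40 without manganese, and -1.57 against untreated LSKO (edgeR adjusted p = 0.00228), while the knockout gave 1.18 and selenite 1.08 against untreated LSKO. Steap2, another metalloreductase of the family, gave -0.65 against the other metals, -0.87 without manganese, and -0.58 against untreated LSKO.

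Lcn2, which binds iron-loaded siderophores and is an acute-phase protein, gave -0.87 for iron against the other metals (edgeR adjusted p = 0.000802), -0.86 without manganese, and 0.13 against untreated LSKO (edgeR adjusted p = 0.567). Its level was 1546 with iron, 1228 and 1598 in untreated LSKO, and 2392 to 3288 with the other metals. Lcn2 rose by 0.68 in untreated LSKO cells against WT, and Tfr2, the hepatocyte iron-sensing receptor, by 0.52. Cd163, the haemoglobin scavenger receptor of macrophages, gave -1.05 against untreated LSKO (edgeR adjusted p = 0.0328) on 62 counts with iron, and is itself a marker in the macrophage list below.

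Of 11 tested genes of storage, iron chaperones and mitochondrial import, 1 was higher and 1 lower against the other metals, and 2 higher and 1 lower without manganese. These shares lie near those over all genes, 22.7% and 18.1% called in either direction. Bola2, which works with glutaredoxin in cytosolic iron handling, gave -0.66 (edgeR adjusted p = 0.00150), and -0.78 without manganese. Against untreated LSKO Bola2 gave -0.40 with iron, under the fold minimum, and 0.62 with selenite, which was called. Part of that gap thus lay on the reference side. Pcbp2, an iron chaperone that is also an RNA-binding protein, gave 0.57 for iron against the other metals. Its level was 71.9 with manganese and 124 to 162 in the other libraries, 32.7% of its exon bases lie under an exon of the opposite strand, and without manganese it gave 0.28 and was not called. Pcbp1, the related chaperone that delivers iron to ferritin, had 404 with iron and 264 to 312 elsewhere, and gave 0.48 against the other metals and 0.39 against untreated LSKO (edgeR adjusted p = 0.00139 and 0.0164), both under the fold minimum, and 0.53 against selenite and zinc without manganese (edgeR adjusted p = 0.00195), a call. No gene of this list was called for iron against untreated LSKO, and Pcbp3 gave 1.10 for the knockout, on 26 and 32 counts in WT. Against untreated LSKO, selenite called Bola2 higher and Herc2 lower (-0.82), and manganese called Pcbp2 lower (-1.04), beside 17.6% and 17.2% of all genes. Herc2, called higher with iron without the manganese library (0.51), gave 0.02 with iron against untreated LSKO, so that its gap lay on the reference side.

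Of 7 tested genes of iron and heme export and ferroxidases, 2 were lower against the other metals, beside 7.54% of all genes, and 2 without manganese, beside 9.43%. Cp, the plasma ferroxidase ceruloplasmin, had 2406 with iron, 3050 to 3257 in the untreated libraries and 3976 to 5042 with the other metals, a log2 fold change of -0.84 (edgeR adjusted p = 6.59e-05), or -0.90 without manganese. Against untreated LSKO Cp gave -0.42, under the fold minimum. Abcg2, an exporter of porphyrins and drugs, gave -0.72 against the other metals (edgeR adjusted p = 0.000177), -0.90 without manganese, and -0.64 against untreated LSKO (edgeR adjusted p = 0.00190). Slc48a1, a heme transporter of endosomes and lysosomes, was 0.52 higher than in untreated LSKO (edgeR adjusted p = 0.00490). Flvcr1, which has been described as a heme exporter, had the smallest p for the knockout (-0.37, edgeR adjusted p = 0.0567).

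A list written to hold regulators of the sensors and other genes with an iron-responsive element had 16 tested genes. Whether each of them belongs to either class was not checked, and no motif search is reported for them. Of these 16, 0 were called in any of the 3 comparisons, iron against the other metals, iron against untreated LSKO and LSKO against WT. Over all genes 22.7%, 8.70% and 10.4% were called in these comparisons. Selenite against untreated LSKO called 2 genes of the list higher (Rbx1 0.54 and Sdhd 0.50) and 1 lower (Epas1 -0.56), beside 17.6% of all genes. The smallest p in each of the 3 comparisons, in that order, were those of Skp1, Cul1 and Hif1a. Skp1, a subunit of the ubiquitin ligase that degrades IRP2, gave -0.47 (edgeR adjusted p = 0.00221). Its scaffold Cul1 gave 0.27 (edgeR adjusted p = 0.0748) and the hypoxia factor Hif1a -0.33 (edgeR adjusted p = 0.0238). Without manganese Skp1 gave -0.55 and was called. Against untreated LSKO Skp1 gave -0.26 with iron and 0.49 with selenite, neither called, so that part of that gap lay on the reference side.

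All 16 genes of heme synthesis and breakdown were tested, and 1 was higher and 2 lower against the other metals, with or without manganese, near the 22.7% and 18.1% of all genes called in either direction. Hmox1, heme oxygenase, which frees iron from heme and is induced by oxidative stress, had 378 and 353 in WT, 286 and 220 in untreated LSKO, 622 with iron, 406 with manganese, 327 with selenite and 331 with zinc. The iron library was the highest. It gave 0.82 against the other metals (edgeR adjusted p = 0.000595), 0.92 without manganese, and 1.30 against untreated LSKO (edgeR adjusted p = 0.000170), where the knockout gave -0.53 (edgeR adjusted p = 0.00929). Hp, the haemoglobin-binding acute-phase protein haptoglobin, gave -1.23 against the other metals (edgeR adjusted p = 2.06e-05) and -1.39 without manganese. Against untreated LSKO, iron gave -0.46 for Hp, under the fold minimum, while selenite gave 1.18 and zinc 0.67, both called, so that the larger part of that gap lay on the reference side. Blvra, a biliverdin reductase, gave -0.59 against the other metals (edgeR adjusted p = 0.00617), -0.63 without manganese, and -0.32 against untreated LSKO, which was not called. Blvrb, the other biliverdin reductase, rose by 0.52 in untreated LSKO cells against WT (edgeR adjusted p = 0.00357).

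Of 29 tested genes of iron-sulfur cluster assembly, 4 were lower and 0 higher against the other metals, 5 lower without manganese, and 2 lower against untreated LSKO. Over all genes 7.54%, 9.43% and 4.89% were lower, so that 2 of 29 is near the share of all genes. Bola3 gave -0.65, the ferredoxin Fdx1 -0.60, the targeting factor Ciao2a -0.60 and Lyrm4, partner of the desulfurase, -0.50 against the other metals (-0.70, -0.67, -0.61 and -0.53 without manganese). Against untreated LSKO, Ndufab1, the mitochondrial acyl carrier protein, gave -0.51 (edgeR adjusted p = 0.00698) and Fdx1 -0.51 (edgeR adjusted p = 0.0399). The median of the list was -0.05 against the other metals, beside 0.07 over all genes, and -0.01 against untreated LSKO.

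Markers of other liver cells moved with the iron library as well. Hepatocyte markers were high in all libraries, with a summed level of 22140 to 53620 normalized CPM over 10 genes (32800 with iron), led by Alb (17710 to 43300) and Apob (1949 to 2881). The knockout called 8 of these 10 markers higher and 0 lower, beside 6.74% and 3.70% of all genes. The median log2 fold change of the markers was 0.83 there, beside 0.003 over all genes. With iron, 4 were lower and 1 higher against the other metals, with or without manganese (median -0.46 and -0.40). Over all genes 7.54% were lower and 15.2% higher in that comparison, and 9.43% and 8.69% without manganese. Of 13 tested markers of Kupffer cells and macrophages, which recycle iron and also express Tfrc, Slc40a1 and the ferritins, 9 were lower with iron than with the other metals (7 of 12 without manganese) and 6 lower than in untreated LSKO, beside 7.54%, 9.43% and 4.89% of all genes. Their summed level was 351 with iron, 307 and 352 in untreated LSKO and 347 to 564 with the other metals, with Cd68 at 135 to 370 and Cd5l at 17.9 to 25.2, neither of them called for iron. Cd68 had 263 with iron and moved the other way against untreated LSKO (0.47, edgeR adjusted p = 0.0125, under the fold minimum), and the other 13 markers summed to 88.0 with iron, 129 and 150 in untreated LSKO and 147.5 to 193.9 with the other metals. Among the called markers, C1qa gave -1.62, Vsig4 -1.44 and Clec4f -1.36 against untreated LSKO. Of the 13 tested, 7 were not called in that comparison, among them Marco (0.56) and Adgre1 (-0.10). Adgre1 and Marco were called higher against untreated LSKO with selenite (1.76 and 1.73), manganese (1.52 and 1.78) and zinc (1.34 and 1.61). Their gap between iron and the other metals thus lay largely on the reference side. Of 8 sinusoidal endothelial markers 7 were lower with iron than in untreated LSKO, beside 4.89% of all genes. Their sum was 106 with iron, 166 and 214 in untreated LSKO, 139 with zinc, 145 with selenite and 198 with manganese. Pecam1 had 24.0 to 49.7 and Cdh5 22.0 to 41.7 over the libraries. Against untreated LSKO, selenite called 4 of the 8 lower (9.67% of all genes), zinc 1 (1.55%) and manganese 1 (15.1%). The knockout called 3 lower against WT (3.70%). Stellate cell markers summed to 23.0 with iron and 39.9 to 49.5 elsewhere, with Dcn at 11.1 to 27.6 and Rgs5 at 4.54 to 9.48. Of these 8 markers iron called 4 lower than in untreated LSKO (4.89% of all genes), selenite 3 (9.67%), zinc 2 (1.55%) and manganese 0 (15.1%). Cholangiocyte markers summed to 25.9 with iron and 42.9 to 88.0 elsewhere, with Spp1 at 9.62 to 62.6 and Sox9 at 7.86 to 13.1. Without Spp1 the sums were 16.2 with iron, 14.3 with zinc and 17.5 to 25.4 elsewhere. Iron called 2 of 3 tested lower than in untreated LSKO (4.89% of all genes). Zinc (1.55%) and manganese (15.1%) each called 1 lower, Krt19 (-0.85 and -0.77). Selenite called 1 higher, Spp1 (0.58), beside 7.89% of all genes. Erythroid markers summed to at most 0.932 in any library, none had enough counts to be tested, and Slc4a1 was at 0 in all. The part of these other cells in the values of the iron genes was not tested, and fewer cells of a type cannot be told apart from less RNA per cell in such bulk samples.

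The genes whose pattern over the 8 libraries was most like that of each iron gene were found among 8588 protein-coding genes by the root mean square difference of centred log2 levels. Nearest to Tfrc were Ndufa1 (0.176) and Rpl38 (0.183), where the pattern of Tfrc itself had a standard deviation of 0.454. Ndufa1 ran from 26.0 with iron to 56.2 with selenite. The nearest to Fth1 were Thoc6 (0.0722) and Txlng (0.0775), both also highest with iron, at 21.3 and 44.3. Phlda1 (0.0671) and Ubxn6 (0.0694) were nearest to Ftl1 and fell like it in the manganese library, to 29.6 and 29.2. Rrp8 and Dis3 were nearest to Slc40a1, Zfp770 and 5730455P16Rik to Slc11a2, Zcchc10 and Tomm34 to Trf, Cnot6 and Aplp2 to Aco1, and Acap2 and Cep135 to Ireb2. With 8 libraries such a likeness describes these samples only.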

How the data were processed

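The authors deposited unnormalized counts of reads per gene, from alignment by hisat2 v.2.1.0 and counting by HTSeq-Count v.0.11.2. The submitters' processing notes add Trimmomatic, DESeq2 and GRCm38. How strand and alignment quality were set, and which annotation was counted, is not given in the sources used here. Summary lines of HTSeq (reads in no gene, ambiguous, discarded or not aligned) stayed out of all fits. With manganese, 72.2% of the reads were in genes, and 39.3% to 42.1% in the other libraries.

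Symbols, coordinates and transcripts came from GENCODE M21. Genes with at least 80 counts in all were fitted over 6 groups in R 4.3.3 by edgeR 4.0.16 (TMM factors, quasi-likelihood F-test, two-sided, 2 residual and 8.53 prior degrees of freedom, biological coefficient of variation 8.29%). Dividing the size of a log2 fold change by the root of its F gave its standard error, and the Benjamini-Hochberg adjustment took in every tested gene of a comparison. Replicates were not copies of each other: chi-square over its degrees of freedom was 5.99 between the WT and 13.3 between the LSKO libraries. In counts simulated for iron against the other metals, over 15468 genes, 37.3% of 1.5-fold, 68.7% of 2-fold and 90.9% of 4-fold changes were recovered.

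The 8 genes and the other lists were chosen with earlier results of these data known. Named beside them are up to 4 called genes of each list with the largest change in each of 3 comparisons (or the 1 of smallest p), the 2 most abundant markers of each list, near-identical copies (90% identity over 300 bases by blastn 2.17.0, 80 counts) and the 2 genes of most like pattern among those of at least 10 normalized CPM. Pcbp1 without manganese, Gm6977, Gm10252, Gm5475, Gm20425, Slc4a1, C1qa, Vsig4, Clec4f, Rbx1, Sdhd and Epas1 were named after their values were seen. So were Marco, Adgre1 and Herc2.

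Other settings were DESeq2 1.42.0, median-ratio factors, filterByExpr or no filter, leaving out each replicate, other fold minimums, other references, the manganese library left out, copies added, and offsets for transcript length and GC content (splines with 4 degrees of freedom, MASS 7.3.60.0.1).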

Additional observations from a re-analysis of the deposited data

How the results depend on the processing

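Of 736 values of the 8 genes under the alternatives, 707 stayed on the same side of the threshold, 20 lost a call and 9 gained one. No called value changed sign, and 29 that were called in neither fit did. Tfrc was lower with iron against the other metals in all 17 alternatives, from -1.47 to -1.22 (adjusted p 4.32e-39 to 0.000388), and against untreated LSKO in 15 of 16, from -0.80 to -0.60 (adjusted p 2.52e-10 to 0.0141), the exception being the fold minimum of 1. Fth1 was higher against untreated LSKO in 14 of 16, from 0.47 to 0.61 (adjusted p 9.28e-10 to 0.0316). Against the other metals, 1 gene in place of 2 was called with a fold minimum of 1, against selenite alone, without the manganese library, and without it but with the length and GC correction (an alternative chosen after seeing the data). For iron against untreated LSKO, 0 genes were called with a fold minimum of 1, and 1 to 2 with a replicate left out. For manganese, 1 gene in place of 3 passed the minimum of 1. For selenite the 1 call became 0 with DESeq2, median-ratio factors, no filter, a minimum of 1, the length and GC correction with or without manganese, and 0 to 1 with a replicate left out. With no fold minimum 3 genes were called for selenite, 3 for zinc and 1 (Trf) for the knockout. For zinc 0 passed a minimum of 1, and 2 were called against WT (chosen after seeing the data). In the knockout comparison the replicate numbers did not pair the libraries (correlation of deviations -0.08 for WT 1 and LSKO 1). The fit of the 4 untreated libraries with the replicate number as a block called 0 of the 8 genes and 1736 of all genes, and 1621 without it. Over all genes DESeq2 called 738 in place of 1345 for iron against untreated LSKO, 1039 in place of 1615 for the knockout, 1649 in place of 2717 for selenite and 413 in place of 688 for zinc. The length and GC correction left 1261 for selenite. Without WT replicate 1 or 2 the knockout had 750 and 808 calls, and 1005 without LSKO replicate 2. With 1 library per metal, the spread of the untreated pairs is assumed for each, and counting intervals cover no difference between cultures.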
